A study of Mus musculus with 74 samples.

Results

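The transcripts of circulating blood cells were followed through L4 dorsal root ganglia (DRG) of mice. The genes were 5 erythroid genes (Hba-a1, Hba-a2, Hbb-bs, Hbb-bt and Alas2) and 5 neutrophil genes (S100a8, S100a9, Lcn2, Ngp and Retnlg), taken by name, and all 10 were found among 53379 genes in the files. In whole DRG, 4 C57BL/6 wild type females taken 1 day after spinal cord injury (SCI, a cut across the dorsal column at T9/10) were compared with 4 uninjured females, all aged 10 to 12 weeks. No sham surgery is described for the uninjured mice, and whether blood was flushed out before whole DRG were taken is not given in the sources used here. Reads on genes ranged from 21959030 to 44493319 in the 8 whole DRG libraries, which had 1 mouse each. The same genes were then read in YFP+ sensory neurons sorted by FACS from L4 DRG of Thy1YFP16 females aged 10 to 20 weeks, in which the Thy1 promoter drives YFP in a subset of sensory neurons. Those mice were naive (6 mice) or were taken 1 or 3 days after SCI or after sciatic nerve injury (SNI, a nerve crush), with 4 mice in each injured group and 3 wells of about 100 cells from each mouse.

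Red blood cells carry haemoglobin, which joins alpha chains (Hba-a1 and Hba-a2) and beta chains (Hbb-bs and Hbb-bt) around heme. Alas2 is the erythroid enzyme for the first step of heme synthesis, and young red cells still hold its messenger RNA. Neutrophils are short-lived white cells that leave the blood at inflamed sites. S100a8 and S100a9 form calprotectin, the abundant calcium- and zinc-binding protein of neutrophil cytosol, Lcn2 is a granule protein that withholds iron from bacteria, Ngp is a granule protein of maturing neutrophils, and Retnlg is a resistin-like secreted protein. A ganglion has its own vessels, so its RNA can hold transcripts of blood within them. Fewer blood cells and less RNA in each blood cell cannot be told apart in whole tissue.

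The alpha globin genes lie near each other at chr11:32283511-32284465 (Hba-a1) and chr11:32296489-32297298 (Hba-a2), and the beta globin genes at chr7:103826534-103828096 (Hbb-bs) and chr7:103812524-103813996 (Hbb-bt), in GRCm38 with GENCODE vM21. S100a8 (chr3:90668978-90670035) and S100a9 (chr3:90692632-90695721) are also neighbours. Alas2 lies at chrX:150547375-150570638, Lcn2 at chr2:32384633-32388252, Ngp at chr9:110419747-110423012 and Retnlg at chr16:48872621-48874496. The paired globin genes are near copies of each other, and this bears on how their reads were counted. Of all stretches of 50 bases in Hba-a2 transcripts 86.9% also occur in Hba-a1, and 67.5% of those in Hba-a1 also occur in Hba-a2. The shared part was 57.5% for Hbb-bs and 58.3% for Hbb-bt, against 0 for S100a8 and S100a9. Reads that fit both copies can be lost from both or split between them, so the level of 1 globin copy is uncertain. The reads that aligned to more than 1 place made up 21.5% to 25.7% of the whole DRG libraries, and the globin part of them was not tested.

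The promoters of 2 erythroid and 2 neutrophil genes are shown as examples, in sequence from RefSeq (GRCm38.p6). All 10 genes had an entry. Each run below ends at the last base before the gene's annotated start and reads 5′ to 3′ on the gene's strand. It lies at chr11:32296242-32296488 (+) for Hba-a2, chrX:150547167-150547374 (+) for Alas2, chr3:90668821-90668977 (+) for S100a8 and chr3:90695722-90695971 (-) for S100a9. Capitals mark matches on either strand to AGATAA (a form of the site read by GATA factors), CACCC (the core read by Kruppel-like factors) or GCAAT (part of the site read by C/EBP factors), and no matches overlapped. Other forms of the GATA site, such as the tgataa in Hba-a2, were not searched and stay in lower case.
Hba-a2: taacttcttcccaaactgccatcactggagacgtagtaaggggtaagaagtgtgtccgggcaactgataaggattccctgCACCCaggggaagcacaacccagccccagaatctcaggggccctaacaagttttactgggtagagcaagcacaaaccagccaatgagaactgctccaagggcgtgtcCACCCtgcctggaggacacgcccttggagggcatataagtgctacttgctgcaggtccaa
Alas2: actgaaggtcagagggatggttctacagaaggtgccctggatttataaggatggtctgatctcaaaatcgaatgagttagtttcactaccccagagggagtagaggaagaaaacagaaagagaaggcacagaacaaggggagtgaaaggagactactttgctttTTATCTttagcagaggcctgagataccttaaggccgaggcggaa
S100a8: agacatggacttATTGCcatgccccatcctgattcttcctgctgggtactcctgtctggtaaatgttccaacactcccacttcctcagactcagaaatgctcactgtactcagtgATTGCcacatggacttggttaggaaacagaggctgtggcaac
S100a9: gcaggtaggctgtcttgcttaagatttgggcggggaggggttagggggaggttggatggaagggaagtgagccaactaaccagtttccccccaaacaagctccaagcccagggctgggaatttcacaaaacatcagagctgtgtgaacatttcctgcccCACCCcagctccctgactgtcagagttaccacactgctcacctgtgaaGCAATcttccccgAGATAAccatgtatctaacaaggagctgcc

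Over the 250 bases before the RefSeq start, CACCC was found in 5 of 5 erythroid and 2 of 5 neutrophil genes, beside 52.0% of all 32851 promoters. For Alas2 the match lies past the end of the run shown above, which stops at the annotated gene start. GCAAT was found in 0 of 5 erythroid and 5 of 5 neutrophil genes, beside 23.1% of all promoters. AGATAA was found before Hbb-bs, Alas2 and S100a9, beside 9.99% of all promoters. These are matches of letters, and no binding was measured.

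The 4 globin genes rose in whole DRG 1 day after SCI, and the 5 neutrophil genes had positive log2 changes that did not pass the test. By edgeR's quasi-likelihood test with Benjamini-Hochberg adjustment over 17616 genes (threshold 0.1), 4 of the 10 genes were called higher and 0 lower, beside 1.38% of all genes called higher, 0.937% called lower and 2.32% called in either direction. The median log2 change was 1.62 over the erythroid genes and 0.94 over the neutrophil genes, beside 0.01 over all genes tested. The separation came from 3 of the 4 SCI mice: in SCI mouse 4 all 10 genes were at their lowest among SCI mice, whereas this mouse was lowest for 27.3% of all genes tested. The calls and changes of the 10 genes are therefore given with and without SCI mouse 4. This mouse was picked from these same values, so leaving it out must raise every change. The smaller p-values without it are therefore no further support for a rise.

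**Figure D1:**
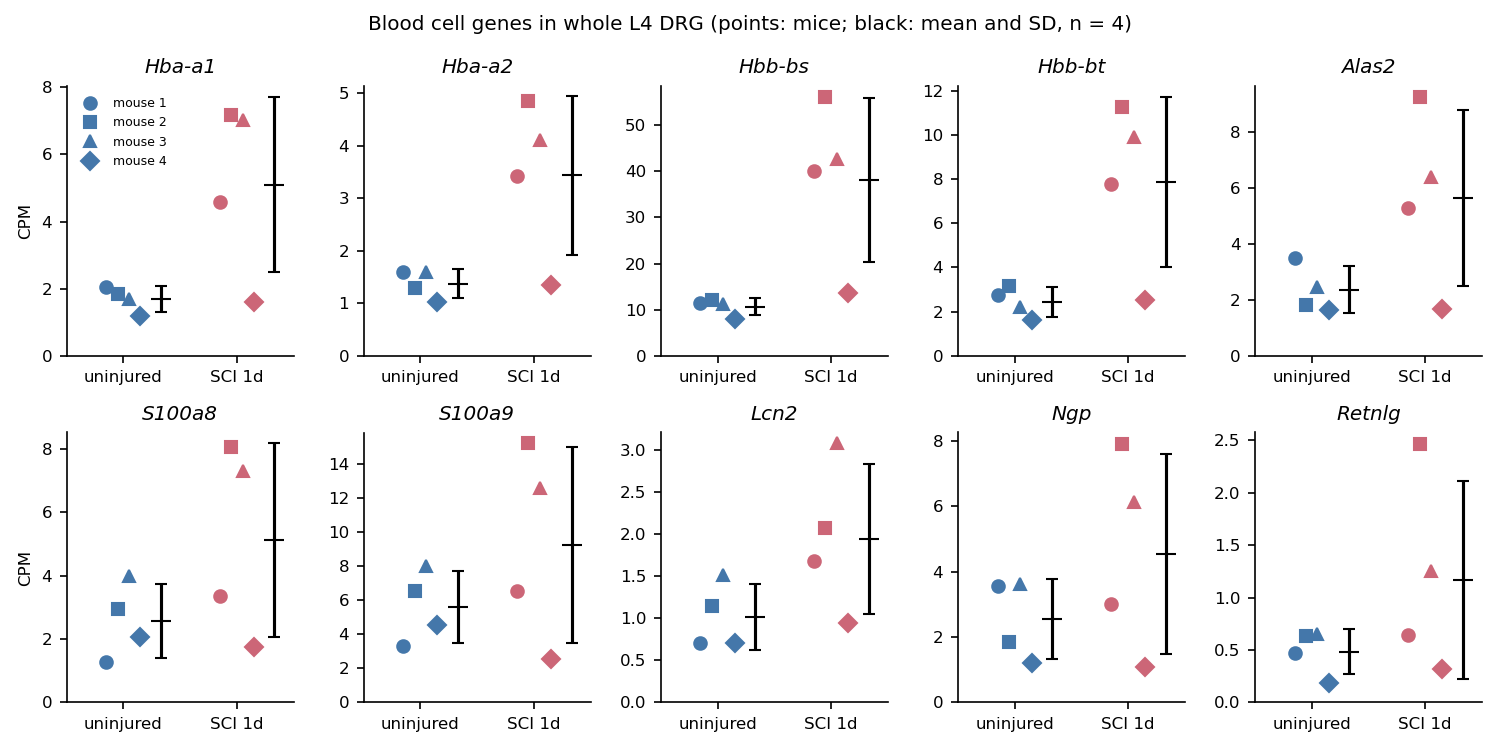
Level of the 10 genes in CPM (the usual depth-scaled read count, here with TMM-scaled library sizes) in whole L4 DRG of 4 uninjured mice (blue) and 4 mice 1 day after SCI (red), with marker shapes for the mouse number and the mean and SD in black. SCI mice 1 to 3 sit above all uninjured mice for the 5 erythroid genes and for Lcn2, and SCI mouse 4 (diamond) is the lowest SCI mouse in every panel.

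Hbb-bs, the beta globin gene with the most reads, was at 11.4, 12.1, 11.3 and 7.92 CPM in uninjured mice 1 to 4 and at 40.1, 56.0, 42.7 and 13.5 CPM in SCI mice 1 to 4. Every SCI mouse was above every uninjured mouse, which held for 1 of the 10 genes and for 4.92% of all genes tested. The log2 change was 1.84 ± 0.34 (SE; edgeR adjusted p = 0.036), and without SCI mouse 4 it was 2.11 ± 0.16 (edgeR adjusted p = 0.0016). The means were 10.7 ± 1.88 (SD, n = 4) and 38.1 ± 17.8 CPM (SD, n = 4), so the spread between SCI mice was far wider than that between uninjured mice.

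Hbb-bt, the other adult beta globin gene, was at 2.76, 3.17, 2.22 and 1.63 CPM in uninjured mice 1 to 4 and at 7.77, 11.3, 9.89 and 2.52 CPM in SCI mice 1 to 4. The groups overlapped through SCI mouse 4 alone. Its log2 change was 1.70 ± 0.38 (SE; edgeR adjusted p = 0.071), and 1.98 ± 0.22 (edgeR adjusted p = 0.0082) without that mouse.

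The alpha globins followed the same order. Hba-a1 was at 2.06, 1.85, 1.70 and 1.18 CPM in uninjured mice 1 to 4 and at 4.57, 7.17, 7.04 and 1.62 CPM in SCI mice 1 to 4. Hba-a2 was at 1.59, 1.28, 1.60 and 1.02 CPM in uninjured mice and at 3.43, 4.85, 4.10 and 1.35 CPM in SCI mice, in the same order. In both genes SCI mice 1 to 3 were above all uninjured mice and SCI mouse 4 was among them. The log2 changes were 1.62 ± 0.38 for Hba-a1 (SE; edgeR adjusted p = 0.081) and 1.35 ± 0.33 for Hba-a2 (SE; edgeR adjusted p = 0.087). Without SCI mouse 4 they were 1.90 ± 0.22 (edgeR adjusted p = 0.0087) and 1.60 ± 0.19 (edgeR adjusted p = 0.011).

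Alas2 was at 3.51, 1.82, 2.48 and 1.65 CPM in uninjured mice 1 to 4 and at 5.28, 9.27, 6.39 and 1.66 CPM in SCI mice 1 to 4. SCI mice 1 to 3 were above all uninjured mice, and SCI mouse 4 was just above the lowest uninjured mouse. Its log2 change of 1.30 ± 0.42 (SE) did not pass the test (edgeR adjusted p = 0.18), and it was called without SCI mouse 4 at 1.59 ± 0.27 (edgeR adjusted p = 0.043).

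The globin calls rested on which mice were kept. Hbb-bs lost its call without uninjured mouse 2, 3 or 4 (edgeR adjusted p = 0.118, 0.125 and 0.114), which left its log2 change between 1.72 and 1.91. Hba-a1 and Hbb-bt kept theirs in only 2 of the 8 fits that left out 1 mouse (without uninjured mouse 1 or SCI mouse 4) and Hba-a2 in 1 of the 8 (without SCI mouse 4), with edgeR adjusted p up to 0.211, 0.197 and 0.232. Of the genes tested in these fits, 104 to 640 were called, against 408 with all 8 mice.

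Among uninjured mice the highest was 2.16 to 3.56 times the lowest for the neutrophil genes and 1.53 to 2.12 times for the erythroid genes, and among SCI mice the 2 sets overlapped in this spread (3.26 to 7.82 and 3.60 to 5.57 times). S100a8 was at 1.26, 2.95, 3.97 and 2.07 CPM in uninjured mice 1 to 4, a 3.15-fold range, and at 3.36, 8.06, 7.32 and 1.75 CPM in SCI mice 1 to 4. S100a9, its calprotectin partner, was at 3.32, 6.53, 8.03 and 4.51 CPM in uninjured mice and at 6.56, 15.2, 12.6 and 2.52 CPM in SCI mice, in the same order. For both genes SCI mice 2 and 3 were above all uninjured mice and SCI mouse 1 was among them. SCI mouse 4 held less S100a9 than any uninjured mouse.

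Ngp was at 3.56, 1.85, 3.63 and 1.21 CPM in uninjured mice 1 to 4 and at 3.03, 7.92, 6.14 and 1.08 CPM in SCI mice 1 to 4. Retnlg, the lowest of the 10 in CPM, was at 0.468, 0.630, 0.654 and 0.184 CPM in uninjured mice and at 0.639, 2.46, 1.25 and 0.315 CPM in SCI mice, in the same order. Both had SCI mice 2 and 3 above all uninjured mice and SCI mice 1 and 4 at uninjured levels or, for Ngp in mouse 4, below them. Lcn2 was at 0.702, 1.15, 1.52 and 0.708 CPM in uninjured mice and at 1.68, 2.07, 3.08 and 0.944 CPM in SCI mice, so here SCI mice 1, 2 and 3 were all above the uninjured mice.

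None of the 5 neutrophil genes passed the test. The log2 changes were 0.98 ± 0.45 for S100a8, 0.72 ± 0.45 for S100a9, 0.94 ± 0.35 for Lcn2, 0.87 ± 0.52 for Ngp and 1.27 ± 0.56 for Retnlg (SE), with edgeR adjusted p from 0.25 to 0.50. An unadjusted edgeR p under 0.05 was found for 2 of the 5, beside 2570 of all 17616 genes tested. By DESeq2 0 of 5 were called as well. Without SCI mouse 4 the log2 changes were 1.01 to 1.55 and the edgeR adjusted p 0.15 to 0.24, so they were not called there either. That erythroid genes passed and neutrophil genes did not is no test of a difference between them. Of pairs across the 2 sets, only S100a9 to Hbb-bs was tested as a ratio below. It joins the smallest log2 change of the 10 genes (0.72) to the largest (1.84), so it does not stand for the 2 sets. Retnlg (1.27) and Alas2 (1.30) had nearly the same change.

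**Figure D2:**
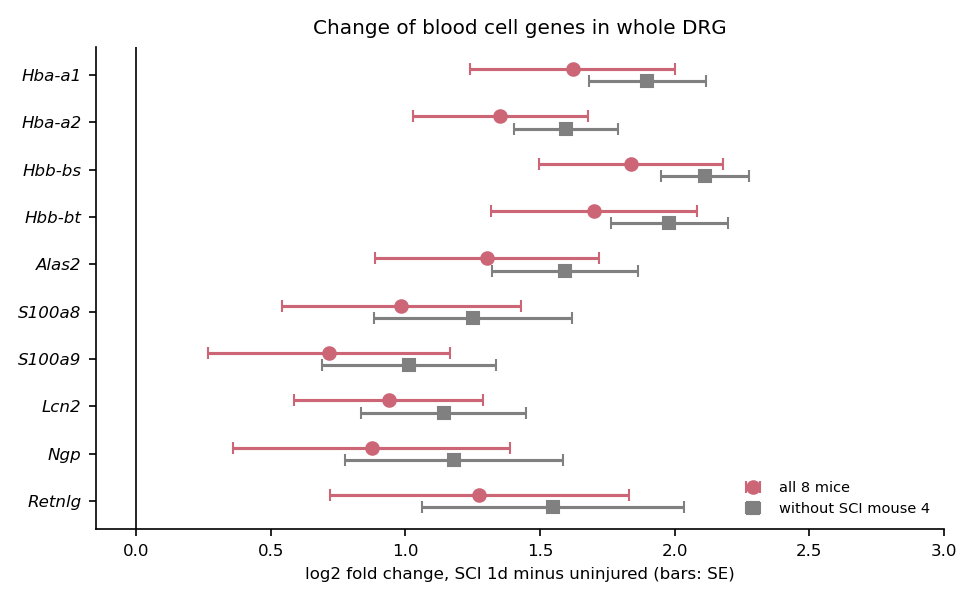
Log2 fold change (SCI 1d minus uninjured, edgeR) of each gene with its SE, with all 8 mice (red circles) and without SCI mouse 4 (grey squares). All 10 changes are above 0 and 4 pass the test. Leaving out SCI mouse 4, the lowest SCI mouse for each gene, must move every change to the right, and it also narrowed each error.

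Without SCI mouse 4, 5 of the 10 genes were called higher, beside 1.11% of all 17798 genes called higher and 0.657% called lower. Every remaining SCI mouse was above every uninjured mouse for 6 of the 10 genes (5 of 5 erythroid genes and, among neutrophil genes, Lcn2), beside 7.79% of all genes. SCI mouse 4 was the lowest SCI mouse for all 10 genes but for only 27.3% of all genes tested. These shares are therefore not like for like. The summed level of the 5 erythroid genes was 13.4 to 21.3 CPM in uninjured mice and 61.1, 88.6, 70.1 and 20.7 CPM in SCI mice 1 to 4. The summed level of the 5 neutrophil genes was 8.68 to 17.8 CPM in uninjured mice and 15.3, 35.7, 30.4 and 6.61 CPM in SCI mice 1 to 4. SCI mouse 1 was thus above every uninjured mouse for red cell genes and within the uninjured range for neutrophil genes.

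SCI mouse 4 was then read in 5 genes that were called higher after SCI. Atf3, an injury-induced transcription factor chosen for this check after its values were seen, was at 8.42 to 10.8 CPM in uninjured mice and at 76.2, 40.9, 27.1 and 57.9 CPM in SCI mice 1 to 4. Serpina3n, an acute phase protease inhibitor, was at 160.0 to 196.0 CPM in uninjured mice and at 283, 310, 274 and 294 CPM in SCI mice 1 to 4. Zbtb16, a glucocorticoid-induced gene, was at 7.88 to 9.60 CPM in uninjured mice and at 18.1, 20.1, 20.1 and 20.4 CPM in SCI mice. F13a1, a coagulation factor gene of monocytes and macrophages, and Cd163, the macrophage receptor for haemoglobin bound to haptoglobin, rose with log2 changes of 1.08 and 0.90 (edgeR adjusted p = 0.0016 and 0.014). F13a1 was at 16.2 CPM and Cd163 at 11.4 CPM in SCI mouse 4, beside 15.5 to 20.1 and 9.10 to 10.4 CPM in the other SCI mice. SCI mouse 4 lay with the other SCI mice in each, but a called gene is one in which it would tend to do so, so these 5 do not show that it responded like the others. Over whole lists, SCI mouse 4 was the lowest SCI mouse for 5 of 13 acute phase and adhesion genes and 2 of 10 glucocorticoid-responsive genes.

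**Figure D3:**
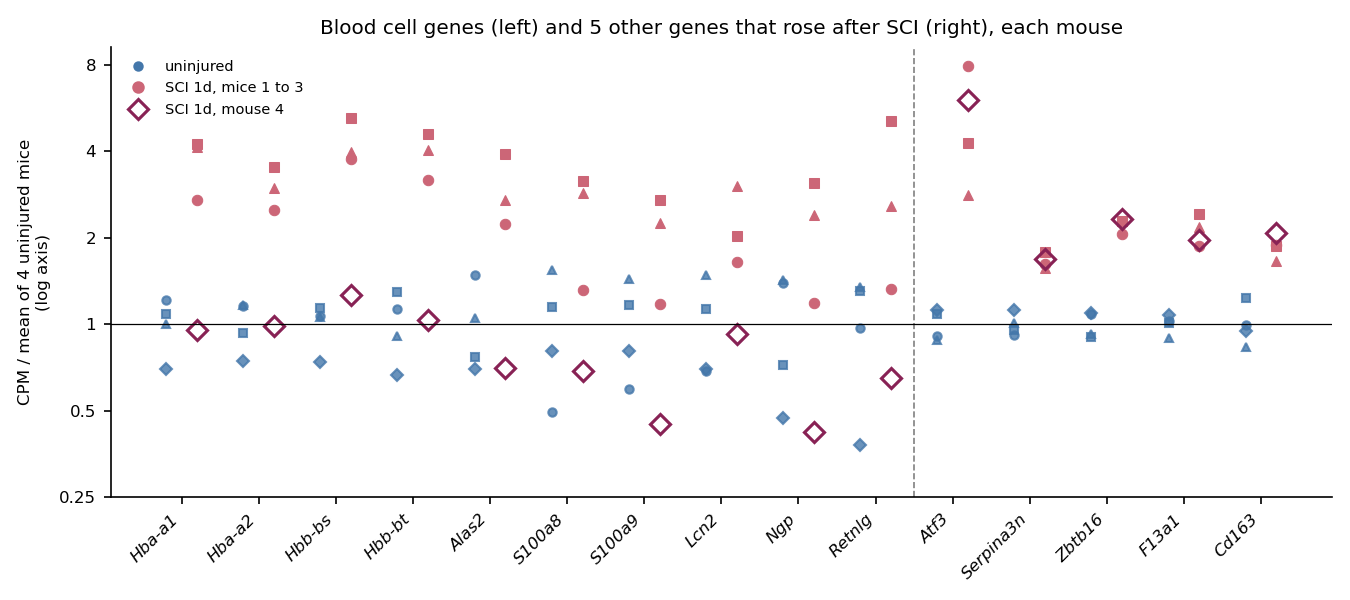
Level of each gene in each mouse, divided by the mean of the 4 uninjured mice (log axis), for the 10 blood cell genes left of the dashed line and for Atf3, Serpina3n, Zbtb16, F13a1 and Cd163 right of it. SCI mouse 4 (open diamond) lies among or below the uninjured mice for 9 of the 10 blood cell genes and just above them for Hbb-bs, and with the other SCI mice for the 5 genes on the right.

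The ratio of 2 genes in a library does not depend on its depth, and 3 ratios asked whether blood cell genes kept their proportions. The ratio of S100a9 to Hbb-bs reads was 0.291, 0.538, 0.711 and 0.570 in uninjured mice 1 to 4 and 0.164, 0.271, 0.295 and 0.186 in SCI mice 1 to 4. The means were 0.527 ± 0.175 (SD, n = 4) and 0.229 ± 0.0638 (SD, n = 4). The groups overlapped only in uninjured mouse 1. The log2 ratio fell between group means by 1.18 (exact permutation test over 70 assignments, two-sided p = 0.057, adjusted over the 3 ratios p = 0.086), where the smallest p this design allows is 0.029.

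The ratio of Alas2 to Hbb-bs was 0.307, 0.150, 0.220 and 0.209 in uninjured mice 1 to 4 and 0.132, 0.166, 0.150 and 0.123 in SCI mice 1 to 4. The groups overlapped, with uninjured mouse 2 inside the SCI range. The log2 ratio differed by -0.60 (exact permutation test, two-sided p = 0.057, adjusted p = 0.086). Both differences missed the threshold of 0.05 set for the ratios, which is stricter than the 0.1 used for the edgeR fits. Each overlap came from 1 uninjured mouse, and leaving out that mouse removes it by choice, so the separation that follows is no further support. Without uninjured mouse 1 the S100a9 log2 difference was -1.44, and without uninjured mouse 2 the Alas2 difference was -0.77. The exact permutation test then gave an unadjusted two-sided p = 0.029 for each, the smallest that 3 against 4 mice can give. Over all fits that left out 1 mouse, this p reached 0.086 for S100a9 and 0.114 for Alas2. The lowest adjusted p in those fits was 0.086 for both. SCI mouse 4 had the lowest Alas2 ratio of the 8 and an S100a9 ratio below all uninjured mice.

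The ratio of Hbb-bt to Hbb-bs was 0.226 ± 0.0306 (SD, n = 4) in uninjured and 0.203 ± 0.0200 (SD, n = 4) in SCI mice, and the log2 ratio differed by -0.15 (exact permutation test, two-sided p = 0.20, adjusted p = 0.20). Individual mice lay between 0.186 and 0.262, with the groups overlapping. The ratio of Hba-a2 to Hba-a1 reads, which was not tested, was 0.695 to 0.938 in uninjured and 0.582 to 0.833 in SCI mice.

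**Figure D4:**
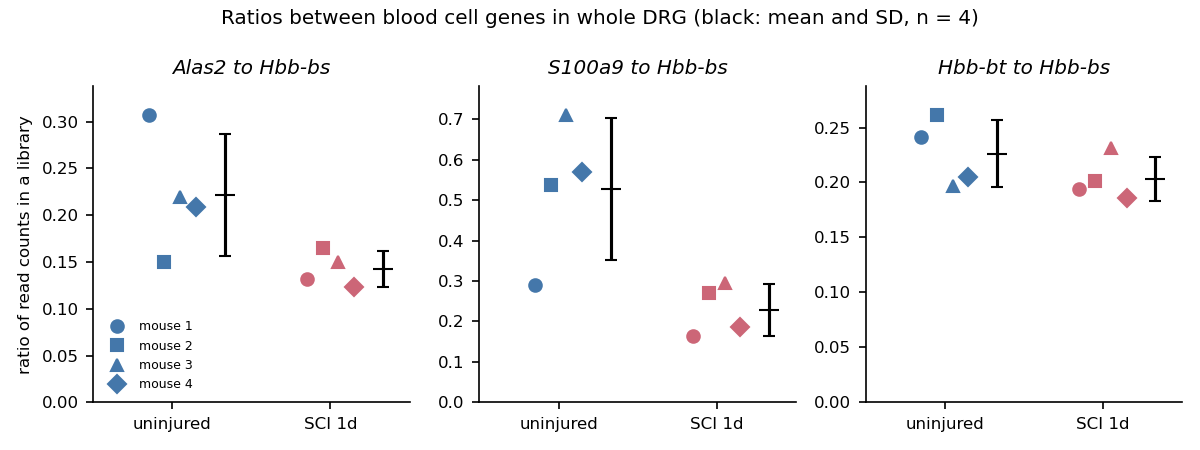
Ratio of read counts of Alas2, S100a9 and Hbb-bt to Hbb-bs within each whole DRG library, with marker shapes for the mouse number and the mean and SD in black (n = 4 a group). The S100a9 ratio is 0.164 to 0.295 in SCI mice and 0.291 to 0.711 in uninjured mice, while the Hbb-bt ratio stays between 0.186 and 0.262 in all 8.

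Levels can be compared between genes only per length of exon. As RPKM (CPM per kilobase of exon), uninjured DRG held Hbb-bs at 13.9 ± 2.45 and S100a9 at 10.7 ± 4.01 (SD, n = 4), a pair whose mice overlap. S100a8 followed at 3.69 ± 1.68, Hbb-bt at 3.48 ± 0.954, Ngp at 2.10 ± 1.00, Hba-a1 at 2.09 ± 0.461 and Hba-a2 at 2.06 ± 0.413 RPKM. The gap between Hbb-bt and Ngp was larger than the SD of either, and the other neighbours among these 5 differed by less than their SD. Alas2 (0.985 ± 0.350), Retnlg (0.816 ± 0.365) and Lcn2 (0.388 ± 0.150 RPKM) were lowest. After SCI the mean levels were 49.6 RPKM for Hbb-bs and 17.6 RPKM for S100a9.

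Other red cell and neutrophil genes, listed apart from the 10, had fewer calls. Of 14 tested red cell genes 10 had a positive change, with a median log2 change of 0.78, and 2 were called higher: Epb42, which encodes a red cell membrane skeleton protein (log2 change 1.88, edgeR adjusted p = 0.081), and Tspan33 (0.55, edgeR adjusted p = 0.071). For Tspan33, unlike the 10 genes, SCI mouse 4 was the highest SCI mouse, at 4.90 CPM beside 3.97 to 4.82 CPM in the others. The summed level of the red cell list overlapped, at 550 to 684 CPM in uninjured and 504 to 646 CPM in SCI mice. Without SCI mouse 4 the genes called higher included the anion exchanger gene Slc4a1, Epb42 and the Rhesus gene Rhd, named after their values were seen. Tspan33 lost its call there (edgeR adjusted p = 0.14). Of 15 tested neutrophil genes 15 had a positive change, with a median of 0.80, and 1 was called: Hdc, which encodes histidine decarboxylase (0.87, edgeR adjusted p = 0.046). Without SCI mouse 4, Hdc and Chil3, which encodes the chitinase-like protein Ym1, were called.

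Lists of other blood cells had 4 calls in all. Of 7 tested platelet genes and 2 tested T and NK cell genes 0 were called, with median log2 changes of -0.04 and 0.24. Of 4 tested B cell genes 3 had a positive change, with a median of 0.84 (1.21 without SCI mouse 4), and 1 was called lower, the immunoglobulin heavy chain gene Ighm (-0.72, edgeR adjusted p = 0.047). Of 9 monocyte genes F13a1 alone was called, and the median was 0.53. Of 10 macrophage genes Cd163 was called higher and the fractalkine receptor gene Cx3cr1 lower (-0.62, edgeR adjusted p = 0.087), with a median of 0.25.

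Vessel markers were read beside these genes. Of 10 endothelial genes 0 were called and the median log2 change was 0.08. Their summed level was 122 to 143 CPM in uninjured mice and 127, 133, 182 and 113 CPM in SCI mice 1 to 4, so SCI mouse 4 was the lowest of the 8. It was the lowest SCI mouse for 8 of the 10 endothelial genes. The part of vessel content in the blood cell results was not tested.

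Most heme and iron genes outside the 10 were not called. Of 8 heme synthesis genes 0 were called (median log2 change 0.06), and Alas1, the housekeeping counterpart of Alas2, had a log2 change of 0.11 (edgeR adjusted p = 0.48). Of 14 heme and iron handling genes the transferrin receptor gene Tfrc alone was called, and it fell by 0.44 on the log2 scale (edgeR adjusted p = 0.055). However, 12 of these 14 had a positive change, with a median of 0.15. An unadjusted edgeR p under 0.05 in either direction was found for 6 of the 14, beside 2570 of all 17616 genes tested. The summed level of this list was 1061 to 1272 CPM in uninjured mice and 1278 to 1367 CPM in SCI mice, with no overlap. Of 13 acute phase and adhesion genes 3 were called, all higher (Serpina3n, Saa3 and Osmr), and of 10 glucocorticoid-responsive genes 6 were called, all higher. The neuron and glia markers checked the tissue: of 9 neuron genes 0 were called and their summed level was 15199 to 16183 CPM in all 8 mice, and of 9 glia genes Glul alone was called (0.32, edgeR adjusted p = 0.036).

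The genes whose log2 CPM varied most like that of Hbb-bs over the 8 libraries, outside the 10, were Comp (Pearson r = 0.977), Rbmx (0.973), AA914427 (0.972), Tshr (0.969) and Gm37166 (0.969), and none of them was in a blood cell list. Among the 10, r with Hbb-bs was 0.977 to 0.989 for the other globins, 0.924 for Alas2 and 0.729 to 0.838 for the neutrophil genes. The genes most like S100a8 were Gm19445 (0.960), Tia1 (0.959), Gm42898 (0.956), Ly6c2 (0.956), which is a monocyte marker, and 9530059O14Rik (0.953). Among the 10, r with S100a8 was 0.969 for S100a9, 0.924 for Lcn2, 0.881 for Retnlg and 0.787 for Ngp, and 0.753 to 0.826 for the erythroid genes. These values describe 8 libraries that share the injury contrast.

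In sorted YFP+ cells the neutrophil genes were at or near 0, 1 well was full of globin reads, and the alpha globins, Hba-a2 above Hba-a1, were read at a low level in most neuronal wells. The 22 mice had 30518187 to 83599972 reads on genes each, so that 3 reads, the limit that a count of 0 allows, came to 0.0359 to 0.0983 CPM in a mouse. S100a9 and Ngp had 0 reads in all 66 wells. S100a8 was read in 1 well (41 reads), Retnlg in 2 and Lcn2 in 5. Among these wells, 20 held 3.76% to 15.4% of their reads on 9 glia genes and are called glia-rich here, against 0.351% to 1.70% in the 46 neuronal wells. The median share of reads on 9 neuron genes was 0.0355% in glia-rich and 2.69% in neuronal wells, so neuron markers were low in most glia-rich wells. Some were mixed: the highest neuron share in a glia-rich well was 1.36%, beside 1.45% in the lowest neuronal well. Counts cover counting error only, since the reads carry no molecular identifiers.

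The globin-rich well was well c of naive mouse 1 of day 1 (titles beginning FACS_), and it was glia-rich (8.04% of reads). It held 43241 Hbb-bs, 8891 Hba-a1, 8427 Hbb-bt, 7910 Alas2 and 6626 Hba-a2 reads, and the 4 globins took 1.26% of its reads. That was 99.5% of all Hbb-bs reads and 96.9% of all Alas2 reads in sorted cells. The 5 neutrophil genes had 0 reads there. Of other red cell genes, Trim10 had 84 reads in the well, Rhd 5 and Epb42 3, while Slc4a1 and Rhag had 0 (named after their values were seen). Its ratios of Hbb-bt to Hbb-bs (0.195), Alas2 to Hbb-bs (0.183) and Hba-a2 to Hba-a1 (0.745) lay within the range of whole DRG libraries, and its ratio of Hba-a1 to Hbb-bs (0.206) lay above their range of 0.114 to 0.180.

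Outside that well Hbb-bs reads were few and not spread evenly over mice. They were found in 12 wells, 11 of which were all the other wells of 4 mice: the mice numbered 1 of the naive day 1, naive day 3, SNI day 1 and SNI day 3 groups with titles beginning FACS_. These 11 wells held 7 to 34 Hbb-bs reads each. Of the 54 wells of the other mice 1 held any (10 reads, in an SCI mouse at day 3). The mouse with the globin-rich well is 1 of these 4.

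Hba-a2 was the globin with the most reads in neuronal wells. It was read in 42 of 46 of them, at a median of 1.00 CPM and up to 5.99 CPM, and in 32 of these wells with 0 reads of Hbb-bs and Hbb-bt. Hba-a1 was read in 38 of the neuronal wells, Alas2 in 18, Hbb-bs in 10 and Hbb-bt in 9. Outside the globin-rich well it was read in 4 of 19 glia-rich wells, with at most 2 reads in any, although the median depth was 15694400 reads there and 18180500 in neuronal wells. In mice with both kinds of well, apart from the mouse with the globin-rich well, the mean Hba-a2 level was higher in neuronal wells in 9 of 11. The mouse set apart had 1241 CPM in the globin-rich well and 0.569 and 1.91 CPM in its neuronal wells. Over the neuronal wells there were 1485 Hba-a2 and 261 Hba-a1 reads, a ratio of 5.69, whereas the ratio was 0.582 to 0.938 in whole DRG. This comparison was chosen after the values were seen and was not tested, and the split of reads between the 2 near copies is uncertain.

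**Figure D5:**
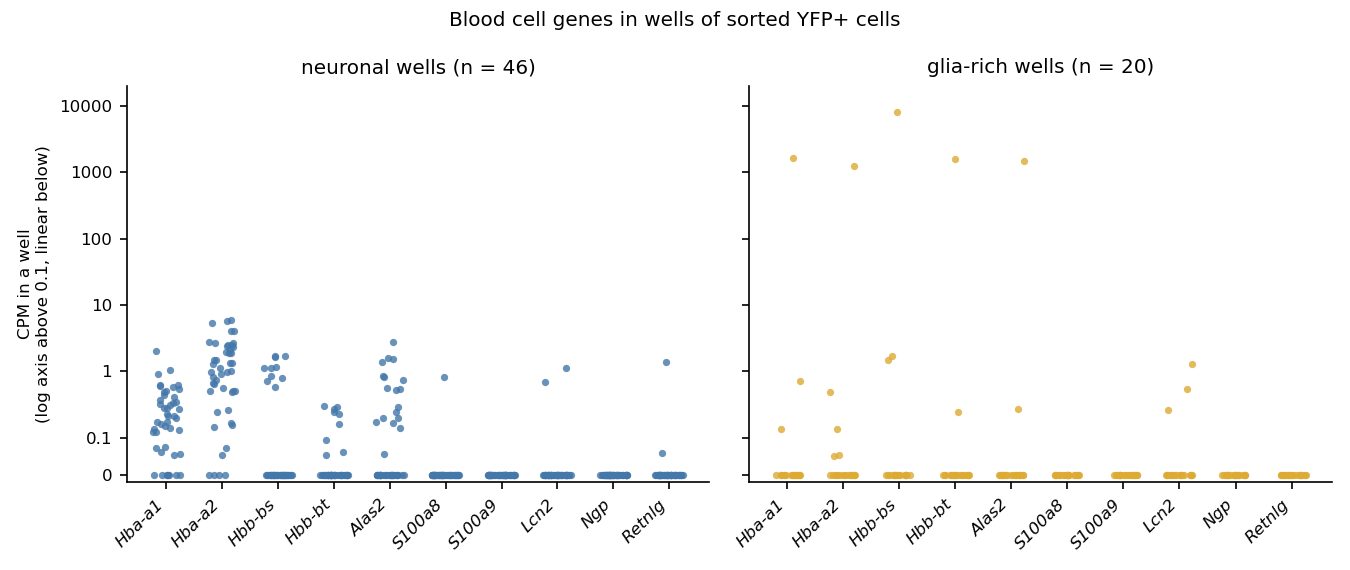
CPM of the 10 genes in each well of sorted YFP+ cells (log axis above 0.1, linear below), for 46 neuronal wells (left) and 20 glia-rich wells (right). Hba-a2 is read in 42 of the neuronal wells at up to 5.99 CPM, and the globin-rich well stands at 1241 CPM or more for the 5 erythroid genes among glia-rich wells that are mostly at 0.

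Whole DRG of uninjured mice and sorted cells of naive mice were set side by side as CPM with no test, since the library kits, the input and the handling differ. DRG for sorting were dissociated by the method the authors give for cultures, in which mice were first perfused with a salt solution. No perfusion is described for whole DRG, and the part of handling in the levels below was not tested. All 4 uninjured whole DRG libraries were above all 6 naive sorted mice for 5 of the 10 genes, the 5 neutrophil genes, beside 40.9% of 17638 genes. Without the globin-rich well it was 9 of 10 genes (41.1% of all genes) and without the glia-rich wells 9 of 10 (43.8% of all genes). Hba-a2 was the exception: without the globin-rich well it was at 0.0175 to 3.96 CPM in naive sorted mice (median 1.09) and at 1.02 to 1.61 CPM in uninjured whole DRG, on the scale of library totals. Hbb-bs was at 0 to 1.37 CPM in sorted mice and at 7.86 to 12.1 CPM in whole DRG on the same scale.

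No blood cell gene was called after injury in sorted cells. Of the 8 genes that could be tested, 0 passed in SNI 1d, SNI 3d, SCI 1d or SCI 3d against naive mice (edgeR's quasi-likelihood test with 2 RUVr factors, adjusted p threshold 0.1), beside 0.702%, 0.489%, 0.0425% and 0.0468% of all 23507 genes. At an unadjusted edgeR p under 0.05 there were 1, 1, 0 and 2 of 8, beside 3536, 3225, 3131 and 2237 of all 23507 genes. No other tool was run. Hba-a2 was read in 4 of 4 SNI 1d mice (median 0.700 CPM), 3 of 4 SNI 3d mice (0.442), 4 of 4 SCI 1d mice (2.36), 3 of 4 SCI 3d mice (0.916) and 6 of 6 naive mice (1.44). The SNI 3d mouse and the SCI 3d mouse without a read had only glia-rich wells, in which Hba-a2 was rarely read. These counts and medians therefore depend on the mix of wells and are not levels in neurons alone. For Hba-a2 the SNI 3d change was called when naive mouse 1 of day 1 or of day 3 with titles beginning FACS2018 was left out, but with the globin-rich well left out it was -2.47 ± 1.16 (log2, SE; edgeR adjusted p = 0.36). With that well in the fit, the naive level of the erythroid genes rests on it.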

How the data were processed

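Per the labels and methods, the authors removed adapters (Cutadapt) and poor reads (PRINSEQ), used STAR (2.5.3a) for alignment against GRCm38, and deposited raw read counts per gene from HTSeq (0.6.1). These counts were the values used. Lines naming no gene (5 a file) were left out: in whole DRG, reads not aligned uniquely made up 21.5% to 25.7%, no feature 7.73% to 9.82% and ambiguous 2.79% to 3.13%. Gene IDs matched GENCODE vM21 for 53274 of 53379 genes.

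Whole DRG (4 against 4 mice) was fitted with edgeR (4.0.16) quasi-likelihood tests in R (4.3.3) after TMM scaling, keeping genes whose mean count reached 10, at an adjusted p threshold of 0.1. In sorted cells the 3 wells of a mouse are technical and were summed. Genes with at least 20 reads in 1 mouse were fitted with 2 RUVr factors, and wells with over 2% of reads on glia genes were called glia-rich. Mice are the replicates, with no statement on litters or cages. Fits were tested on simulated data.

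The 10 genes and the other lists were chosen with earlier results of these data known. Named besides them are up to 3 genes a list with the smallest adjusted p, and 5 most like Hbb-bs or S100a8 (log2(CPM + 1)). The normalized tables of the series hold 99 per-sample columns whose names match no sample's labels, so the whole DRG nerve injury tables (wild type and DLK knockout) were not analysed here. The authors' fold changes and p-values in them were not used. Alternatives included DESeq2 (1.42.0), other scalings, filters, the replicate block and leaving out each mouse. Some red cell genes of the lists are not reported here.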

Additional observations from a re-analysis of the deposited data

Results flagged for a closer look

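In sorted cells, 26 sets of mice (1 gene in 1 group of 4 or 6 mice) were examined and 14 had 1 mouse far from the rest, and no set of whole DRG did. The rate of about 1 in 20 that chance gives does not apply to 8 of the 14, in which every other mouse was at 0 reads, so that any mouse with reads stands apart. In the naive group the highest mouse was at 183 CPM for Hba-a1, 138 for Hba-a2, 892 for Hbb-bs, 174 for Hbb-bt and 163 for Alas2, all from the mouse with the globin-rich well. The highest naive mouse was also apart for S100a8 (0.549 CPM) and Lcn2 (0.237 CPM). After SNI the highest mouse was apart at day 1 for Hbb-bs (1.40 CPM) and Hbb-bt (0.0666 CPM), and at day 3 for Hbb-bs (0.952 CPM), Hbb-bt (0.232 CPM) and Retnlg (0.604 CPM). After SCI it was apart for Alas2 at day 1 (0.540 CPM) and Hbb-bs at day 3 (0.197 CPM).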

How the results depend on the processing

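In whole DRG, 4 blood cell genes were called with all mice, 1 at an adjusted p threshold of 0.05 and 0 to 5 when 1 mouse was left out: 0 without uninjured mouse 2, 3 or 4, 1 without SCI mouse 1, 2 or 3, 3 without uninjured mouse 1 and 5 without SCI mouse 4. Over all genes 408 were called, 929 by DESeq2, 202 at the threshold of 0.05, and 104 to 640 with 1 mouse left out. With the replicate number as a block, 127 genes and 3 blood cell genes were called (Hba-a2 was lost, edgeR adjusted p = 0.105). Same-numbered mice correlated at -0.23, 0.096, -0.11 and 0.34 for numbers 1 to 4, and only the mice numbered 4 were each other's best match. Uninjured mouse 4 was also the lowest uninjured mouse for the 5 erythroid genes, Ngp and Retnlg. The block narrowed the SE of each of the 10 genes (for Hbb-bs from 0.34 to 0.22). So few correlations cannot decide whether the numbers pair the mice. The causes were not tested. With no filter on low counts Alas2 was called too (edgeR adjusted p = 0.049), and Retnlg was not tested at a mean count of 50. Of 159 alternative values of single genes, 131 kept their direction and side of the threshold, 26 lost the call, 2 gained it and none changed sign. The log2 ratios ranged from -0.77 to -0.43 for Alas2, -1.44 to -1.01 for S100a9 and -0.22 to -0.08 for Hbb-bt against Hbb-bs with 1 mouse left out. In sorted cells 0 to 1 blood cell gene was called at SNI 3d with 1 mouse left out. The 1 was Hba-a2, without naive mouse 1 of day 1 (edgeR adjusted p = 0.0472) or of day 3 (0.0962) with titles beginning FACS2018. Over 29 fits the calls over all genes ranged from 0 to 1655 (SNI 1d), 0 to 1410 (SNI 3d), 1 to 38 (SCI 1d) and 0 to 40 (SCI 3d). For whole DRG above sorted cells, 5 genes became 9 without the glia-rich wells and 9 without the globin-rich well, the latter chosen after seeing the data. Read counts were 7 to 69 a library for Retnlg and 56 to 543 for S100a9.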
